A study of Mus musculus with 11 samples.

Results

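The genes described here are the pattern recognition receptors and lectins on a Nanostring myeloid panel, measured in sorted peritoneal macrophages from mice with or without RELMα after injection of PBS or IL-4 complex (IL-4c). Members were all genes of the table whose symbol starts with Tlr, Nlr, Nod, Clec, Siglec, Lgals, Irak, Myd88, Ticam, Tirap, Ly96, Lbp, Card, Ddx58, Ifih1, Pglyrp or Colec, together with Cd14 and without Nlrp3. The rule found 24 of 754 genes. Values are housekeeping-normalized counts with a floor of 30, and 17 of the 24 members were above it in at least 1 mouse, 10 of them in all 11 mice. The other 7 (Clec1b, Clec9a, Nod2, Siglecf, Tlr12, Tlr5 and Tlr9) were listed at 30 in all mice, so for these only a limit is known. Of the 12 Toll-like receptor (Tlr) genes 9 were above the floor, against 1 of 2 Nod genes, 2 of 4 Clec genes and 1 of 2 Siglec genes. The rule also found Lgals3, Myd88, Pglyrp1 and Cd14.

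All mice were female C57BL/6 (spelled C57BI/6 in the labels) aged 6 to 8 weeks and were injected intraperitoneally on days 0 and 2. CD11b+F4/80+ cells were sorted on day 4. Groups were wild-type (Rα+/+) mice given PBS (mice 1 and 2), mice homozygous for the TdTomato allele (RαTd/Td) given PBS (mice 3 and 4), Rα+/+ mice given IL-4c (mice 5, 6 and 7) and RαTd/Td mice given IL-4c (mice 9, 10, 11 and 12). An additional IL-4c-injected Rα+/+ mouse, which the study removed, was not analysed here. IL-4c is IL-4 bound to an antibody, which prolongs its action in the peritoneal cavity. In the RαTd allele the reporter takes the place of Retnla exons, and a universal Cre deleter made the change constitutive, so that every cell of these animals lacks RELMα and not the macrophages alone. Retnla, which encodes RELMα, was at 4631 and 4141 normalized counts in the PBS Rα+/+ mice, between 115675 and 171588 in the IL-4c Rα+/+ mice and at the floor in all 6 RαTd/Td mice, as the labels say.

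Pattern recognition receptors bind molecules that microbes and dying cells carry. Toll-like receptors sense lipoproteins and lipopolysaccharide at the cell surface and nucleic acids in endosomes, and most of them signal through the adaptor MyD88 to NF-κB. C-type lectins such as dectin-1 bind sugars and signal through Syk, Siglecs bind sialic acid, and NOD proteins sense fragments of peptidoglycan in the cytosol. Resident peritoneal macrophages are the first cells to meet microbes that enter the cavity, and IL-4 drives them to divide and to take on an alternatively activated state.

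In each mouse a single factor, between 0.750 and 1.88, links the deposited values to counts, and the counts above the floor summed to between 268858 and 574505 per mouse. A gene therefore had to reach 30.5 to 56.3 normalized counts, depending on the mouse, to lie above the floor, and the highest limits, 56.1 and 56.3, were those of the PBS RαTd/Td mice. The geometric mean of the positive control probes was 853 to 1021 counts in PBS lanes. It was 301 to 441 in IL-4c Rα+/+ lanes and 507 to 623 in IL-4c RαTd/Td lanes. It thus differed with treatment and, after IL-4c, with genotype. The part these differences play in the results was not tested. The probes differ in efficiency, so values are compared between mice for the same gene and not between genes.

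All 7 large peritoneal macrophage markers on the panel were detected in these cells. Their summed level was 38347 to 42522 normalized counts after PBS and 26415 to 36295 after IL-4c, but they did not move together. Mean Adgre1 went from 6296 to 8924 in Rα+/+ and from 7289 to 9420 in RαTd/Td mice, and mean Itgam from 9897 to 9785 and from 7860 to 9972. The means of Csf1r, Timd4, Selp, Alox15 and Cebpb were lower after IL-4c in both genotypes. Some markers of other cells differed with treatment. Of 9 neutrophil markers on the panel 3 were above the floor in any mouse, with a sum of 334 to 630 after PBS and 0 to 151 after IL-4c, and the defining genes Ly6g, Mpo and Elane were at the floor throughout. The B cell gene Ms4a1 was between 105 and 242 after PBS. After IL-4c it was at the floor in 6 of the 7 mice and at 63.1 in mouse 12. The other B cell marker measured, Fcer2a, was at the floor. Of 5 markers of small peritoneal macrophages or monocytes 3 were detected (Ccr2, Irf4 and Ly6c1) and Itgax and Flt3 were not. Their sum was 318 to 505 after PBS, 199.5 to 328 in IL-4c Rα+/+ mice and 209 to 621 in IL-4c RαTd/Td mice, with the highest value in mouse 12. That value rested on Ccr2, at 464, while Irf4, at 157, lay within the range of the other mice. All 4 eosinophil markers and all 3 dendritic cell markers on the panel were at the floor in every mouse. The part of these cells in the differences below was not tested, and in sorted bulk cells fewer cells of a type and less RNA per cell cannot be told apart.

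**Figure D1:**
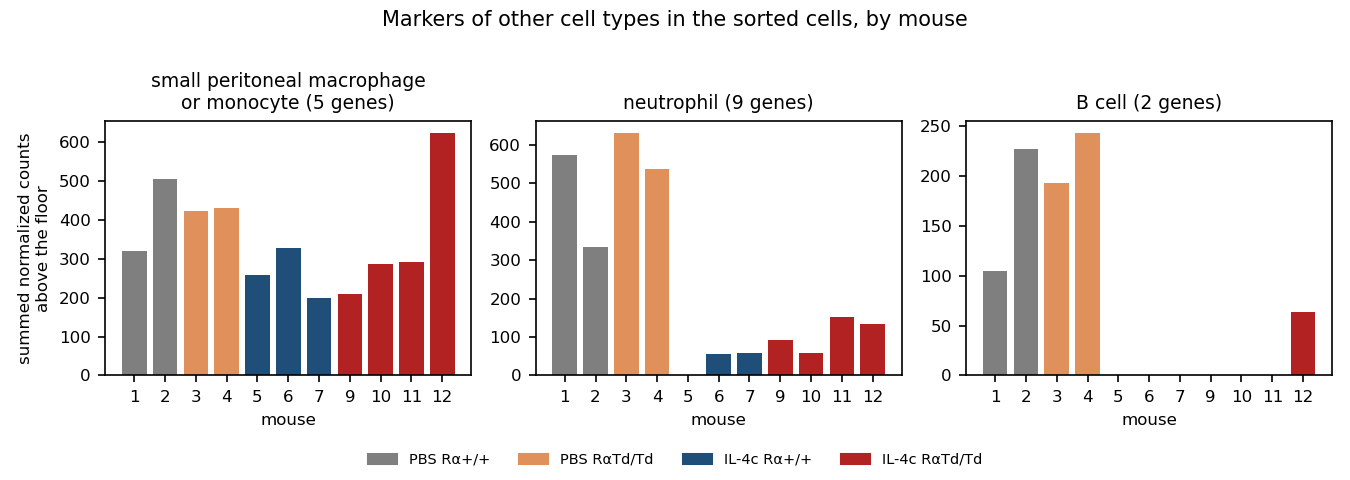
Summed normalized counts above the floor (y axis) of the marker genes of small peritoneal macrophages or monocytes, neutrophils and B cells in each mouse (x axis), coloured by group. The neutrophil sum was 334 to 630 in the PBS mice and 0 to 151 in the IL-4c mice. Mouse 12 had the highest small peritoneal macrophage or monocyte sum, 621, of which Ccr2 was 464.

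Most members that passed the test were lower after IL-4c than after PBS. In Rα+/+ mice, 7 of the 17 members tested passed at an adjusted p of 0.05 or less (limma, Benjamini-Hochberg over the 445 genes tested), where 46.3% of all genes tested passed. Pglyrp1 rose (13.9% of all genes tested rose), and Cd14, Clec7a, Tlr2, Tlr7, Tlr8 and Tlr13 fell (32.4% of all genes fell). In RαTd/Td mice 10 of 17 passed, against a background of 51.9%. These were the same 7, in the same direction, and Clec5a, Nod1 and Siglec1, which fell. Over all genes 15.3% rose and 36.6% fell in these mice. With each mouse centred on its median gene, 2 members rose and 6 fell in Rα+/+ mice and 4 rose and 7 fell in RαTd/Td mice, where all genes called divided into 106 higher and 92 lower and into 104 and 110, in place of 62 and 144 and of 68 and 163. With quantile normalization 2 members rose in each genotype, and 6 and 7 fell. Counted by whether the groups overlapped, 7 members were lower and 3 higher in every IL-4c than in every PBS mouse of the Rα+/+ genotype (42.9% and 20.7% of all genes), and 8 were lower and 1 higher in the RαTd/Td genotype (43.6% and 18.9%). The median log2 fold change over the 17 members was -0.18 in Rα+/+ and -0.70 in RαTd/Td mice, beside -0.18 and -0.23 over all genes tested. The share of members called was thus near that of the whole panel in both genotypes, and which receptors moved is what the values below describe.

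**Figure D2:**
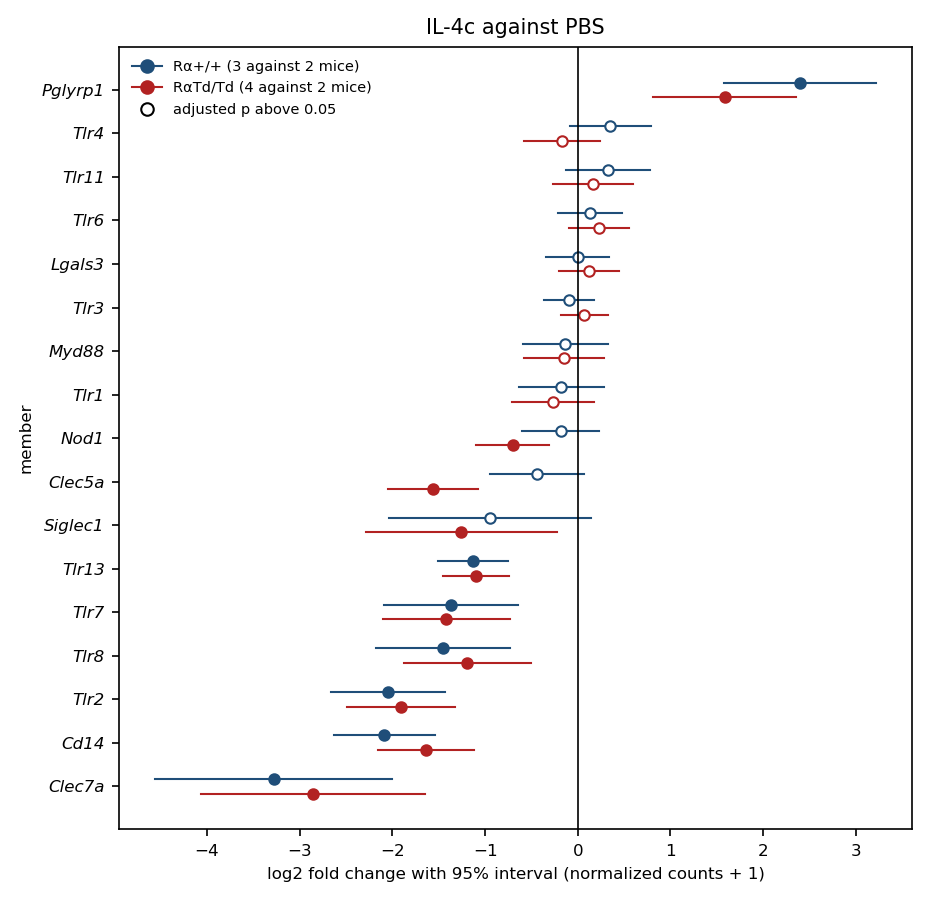
Log2 fold change after IL-4c against PBS (x axis, on normalized counts + 1) for the 17 members above the floor, with 95% intervals, in Rα+/+ (blue, 3 against 2 mice) and RαTd/Td mice (red, 4 against 2 mice). Filled points passed the adjusted threshold: Pglyrp1 lay to the right of 0 in both genotypes, and 6 members lay to the left of 0 and passed in both.

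Promoters are shown for members that changed in both genotypes and whose sequence was given, so that the start regions of 4 receptors that fell can be set beside that of the gene that rose. Each is the 250 bases upstream of the start given for that promoter (RefSeq, GRCm38.p6), printed in the direction of transcription. For Tlr2 the only start given differs from the start of its gene record. Capitals mark matches on either strand to TTC and GAA spaced by any 4 bases, the palindrome bound by STAT6, which IL-4 activates, or to GAGGAA, the core bound by the macrophage factor PU.1 (printed as TTCCTC where it lies on the other strand). Clec7a lies at chr6:129472786-129473035 (minus strand), Tlr8 at chrX:167264330-167264579 (minus), Tlr13 at chrX:106143025-106143274 (plus), Tlr2 at chr3:83841609-83841858 (minus) and Pglyrp1 at chr7:18884440-18884689 (plus).
Clec7a: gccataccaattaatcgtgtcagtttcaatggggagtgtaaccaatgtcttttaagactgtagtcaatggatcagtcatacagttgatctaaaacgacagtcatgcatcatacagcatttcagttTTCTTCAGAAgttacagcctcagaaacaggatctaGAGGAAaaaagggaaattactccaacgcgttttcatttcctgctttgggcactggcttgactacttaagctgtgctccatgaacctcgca
Tlr8: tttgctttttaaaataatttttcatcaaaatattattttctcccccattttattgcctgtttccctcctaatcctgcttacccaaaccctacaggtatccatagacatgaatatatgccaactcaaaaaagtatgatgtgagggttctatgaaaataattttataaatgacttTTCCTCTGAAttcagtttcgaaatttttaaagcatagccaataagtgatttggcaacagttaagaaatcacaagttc
Tlr13: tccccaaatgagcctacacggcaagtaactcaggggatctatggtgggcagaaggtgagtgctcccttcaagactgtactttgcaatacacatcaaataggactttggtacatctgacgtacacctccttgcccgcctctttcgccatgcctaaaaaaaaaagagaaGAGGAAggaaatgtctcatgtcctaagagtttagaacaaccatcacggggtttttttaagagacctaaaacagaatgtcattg
Tlr2: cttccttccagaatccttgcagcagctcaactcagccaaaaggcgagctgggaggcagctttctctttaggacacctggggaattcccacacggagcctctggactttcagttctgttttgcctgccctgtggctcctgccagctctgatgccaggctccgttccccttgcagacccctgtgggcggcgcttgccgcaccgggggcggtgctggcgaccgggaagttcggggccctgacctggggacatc
Pglyrp1: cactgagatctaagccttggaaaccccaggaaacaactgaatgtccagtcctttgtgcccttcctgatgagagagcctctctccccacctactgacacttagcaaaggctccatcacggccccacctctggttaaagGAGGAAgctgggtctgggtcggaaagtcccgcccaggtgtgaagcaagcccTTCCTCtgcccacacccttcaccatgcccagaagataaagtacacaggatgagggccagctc
The Clec7a window held a STAT6 match, TTCTTCAGAA, 125 bases before the start, and a PU.1 match 90 bases before it. In Tlr8 a STAT6 match, TTCCTCTGAA, began 77 bases before the start and overlapped a PU.1 match on the other strand. Tlr13 held a PU.1 match 83 bases before the start, Pglyrp1 held them 113 and 62 bases before it, and the Tlr2 window shown held neither motif. Over all 24 members 20 had a promoter entry (none was given for Tlr7, Tlr4, Cd14 and Siglec1), with 24 windows among them. In any of their windows 4 genes held the STAT6 letters (Clec5a, Clec7a, Lgals3 and Tlr8) and 9 the PU.1 letters. These are counts of genes, whereas the shares that follow are of single windows. The STAT6 letters occurred in 5.85% and the PU.1 letters in 23.3% of the 32851 promoter windows of this length. Such a match describes the letters and not a bound site. Some members are also neighbours in the genome: Tlr7 and Tlr8 lie next to each other on chromosome X, and Tlr1 and Tlr6 on chromosome 5.

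Of the receptors that act at the cell surface, Cd14 was lower in every IL-4c mouse than in any PBS mouse. CD14 binds lipopolysaccharide and hands it to TLR4. Its level was 1666 and 1230 normalized counts in the PBS Rα+/+ mice, 2042 and 2066 in the PBS RαTd/Td mice, 346, 307 and 358 in the IL-4c Rα+/+ mice, and 526, 519, 830 and 847 in the IL-4c RαTd/Td mice. The IL-4c RαTd/Td mice lay between the other IL-4c mice and the PBS mice, with mice 11 and 12 the highest of those given IL-4c. Group means were 1448 ± 308 (SD, n = 2), 2054 ± 16.4 (n = 2), 337 ± 26.8 (n = 3) and 680 ± 183 (n = 4). Cd14 was 4.26-fold lower after IL-4c in Rα+/+ mice (log2 fold change -2.09, SE 0.24, adjusted p = 0.000136) and 3.10-fold lower in RαTd/Td mice (-1.63, SE 0.23, adjusted p = 0.000358). Both falls passed under each of the 22 alternative settings run.

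Tlr4, the receptor that CD14 serves, did not pass in any of the 5 comparisons. Its group means were 218 ± 16.2 (SD, n = 2) in Rα+/+ and 318 ± 13.0 (n = 2) in RαTd/Td mice after PBS, and 279 ± 20.5 (n = 3) and 287 ± 58.3 (n = 4) after IL-4c. In Rα+/+ mice the 3 IL-4c values, 256, 283 and 297, lay above both PBS values, 230 and 207, a difference of 0.35 (log2 fold change, SE 0.19, adjusted p = 0.169). In RαTd/Td mice the groups overlapped (-0.17, SE 0.18, adjusted p = 0.481). The Rα+/+ difference passed when each mouse was centred on its median gene (0.65, adjusted p = 0.0177) or the mice were quantile normalized (0.68, adjusted p = 0.0110), both of which also raised the median of all genes, from -0.18 to 0.12 and 0 respectively. It also passed without rescaling, at an unchanged 0.35, when only the groups compared were fitted (adjusted p = 0.0452) and when mouse 11 was left out (adjusted p = 0.0392).

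Tlr2, which senses bacterial lipoproteins as a pair with TLR1 or TLR6, fell to or near the floor. Its level was 121 and 134 in the PBS Rα+/+ mice and 151 and 150 in the PBS RαTd/Td mice. After IL-4c it was at the floor in all 3 Rα+/+ mice and in mice 9 and 10, and at 63.6 and 42.5 in mice 11 and 12. No IL-4c mouse reached the lowest PBS mouse. With floored mice set at their lowest measurable value, Tlr2 was at least 3.62-fold lower in Rα+/+ mice (adjusted p = 0.000256) and at least 3.74-fold lower in RαTd/Td mice (adjusted p = 0.000313). Both falls passed under all 20 settings run, with log2 fold changes of -2.05 and -1.91 as deposited and -1.16 and -1.36 with a single floor of 56.3 for all mice.

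Its partners Tlr1 and Tlr6 passed in no comparison. Mean Tlr1 ranged from 50.2 ± 8.09 (SD, n = 3) in IL-4c Rα+/+ mice to 71.2 ± 8.20 (n = 2) in PBS RαTd/Td mice. Mean Tlr6 ranged from 79.6 ± 12.2 (n = 2) in PBS RαTd/Td mice to 94.5 ± 6.97 (n = 3) in IL-4c Rα+/+ mice. The IL-4c log2 fold changes in Rα+/+ and RαTd/Td mice were -0.18 (SE 0.21) and -0.27 (SE 0.20) for Tlr1, and 0.13 (SE 0.15) and 0.23 (SE 0.14) for Tlr6. In RαTd/Td mice the Tlr6 difference passed with median centring (0.49, adjusted p = 0.0435) and quantile normalization (0.62, adjusted p = 0.0124). Tlr11, which senses profilin of protozoa and flagellin, was at the floor in all PBS mice and reached at most 49.7 after IL-4c, in mouse 6. It was above the floor in 4 of the 7 IL-4c mice. Its group means after IL-4c were 38.6 ± 10.1 (n = 3) in Rα+/+ and 34.0 ± 4.92 (n = 4) in RαTd/Td mice, which lies under the 56.1 and 56.3 that a gene needed in the PBS RαTd/Td mice to be measured at all.

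Tlr7, Tlr8 and Tlr13, which encode endosomal receptors for RNA, fell in both genotypes. TLR7 and TLR8 bind single-stranded RNA and its breakdown products, and TLR13, which mice have and humans lack, binds bacterial ribosomal RNA. Tlr13 was at 569 and 499 in the PBS Rα+/+ mice, 617 and 723 in the PBS RαTd/Td mice, 244, 237 and 247 in the IL-4c Rα+/+ mice, and 306, 252, 387 and 314 in the IL-4c RαTd/Td mice. Every IL-4c mouse was below every PBS mouse. Group means were 534 ± 49.3 (SD, n = 2), 670 ± 75.2 (n = 2), 243 ± 5.39 (n = 3) and 315 ± 55.4 (n = 4). Tlr13 fell 2.20-fold in Rα+/+ mice (log2 fold change -1.13, SE 0.17, adjusted p = 0.000511) and 2.15-fold in RαTd/Td mice (-1.10, SE 0.16, adjusted p = 0.000422), and did so under each of the 22 settings.

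Tlr7 was at 351 and 256 in the PBS Rα+/+ mice, 306 and 445 in the PBS RαTd/Td mice, 121, 136 and 94.0 in the IL-4c Rα+/+ mice, and 93.3, 117, 165 and 199 in the IL-4c RαTd/Td mice. The PBS and IL-4c groups did not overlap, and mouse 12 was the highest of those given IL-4c. Group means were 303 ± 66.5 (SD, n = 2), 376 ± 98.0 (n = 2), 117 ± 21.3 (n = 3) and 143 ± 47.3 (n = 4). The gene was 2.59-fold lower in Rα+/+ mice (log2 fold change -1.37, SE 0.32, adjusted p = 0.00636) and 2.69-fold lower in RαTd/Td mice (-1.42, SE 0.31, adjusted p = 0.00372). The Rα+/+ call was lost without mouse 1 (-1.14, adjusted p = 0.0824).

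Tlr8, the neighbour of Tlr7, was at 373 and 286 in the PBS Rα+/+ mice, 333 and 443 in the PBS RαTd/Td mice, 124, 169 and 80.1 in the IL-4c Rα+/+ mice, and 131, 150, 176 and 228 in the IL-4c RαTd/Td mice. As for Tlr7, no IL-4c mouse reached a PBS mouse, and mouse 12 came nearest. Group means were 330 ± 61.2 (SD, n = 2), 388 ± 78.2 (n = 2), 124 ± 44.3 (n = 3) and 171 ± 42.1 (n = 4). The fall was 2.76-fold in Rα+/+ mice (log2 fold change -1.45, SE 0.32, adjusted p = 0.00444) and 2.29-fold in RαTd/Td mice (-1.19, SE 0.30, adjusted p = 0.00889). It did not pass in Rα+/+ mice without mouse 1 (-1.26, adjusted p = 0.0609) or in RαTd/Td mice without mouse 4 (-0.98, adjusted p = 0.0863). Tlr3, the receptor for double-stranded RNA, was at the floor in all mice but mouse 2 (34.5) and mouse 12 (36.7), and its group means lay between 30 and 32.3. Tlr9, the receptor for unmethylated CpG DNA, was at the floor in all mice. Changes in Tlr3 and Tlr9 were not detectable at these limits.

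**Figure D3:**
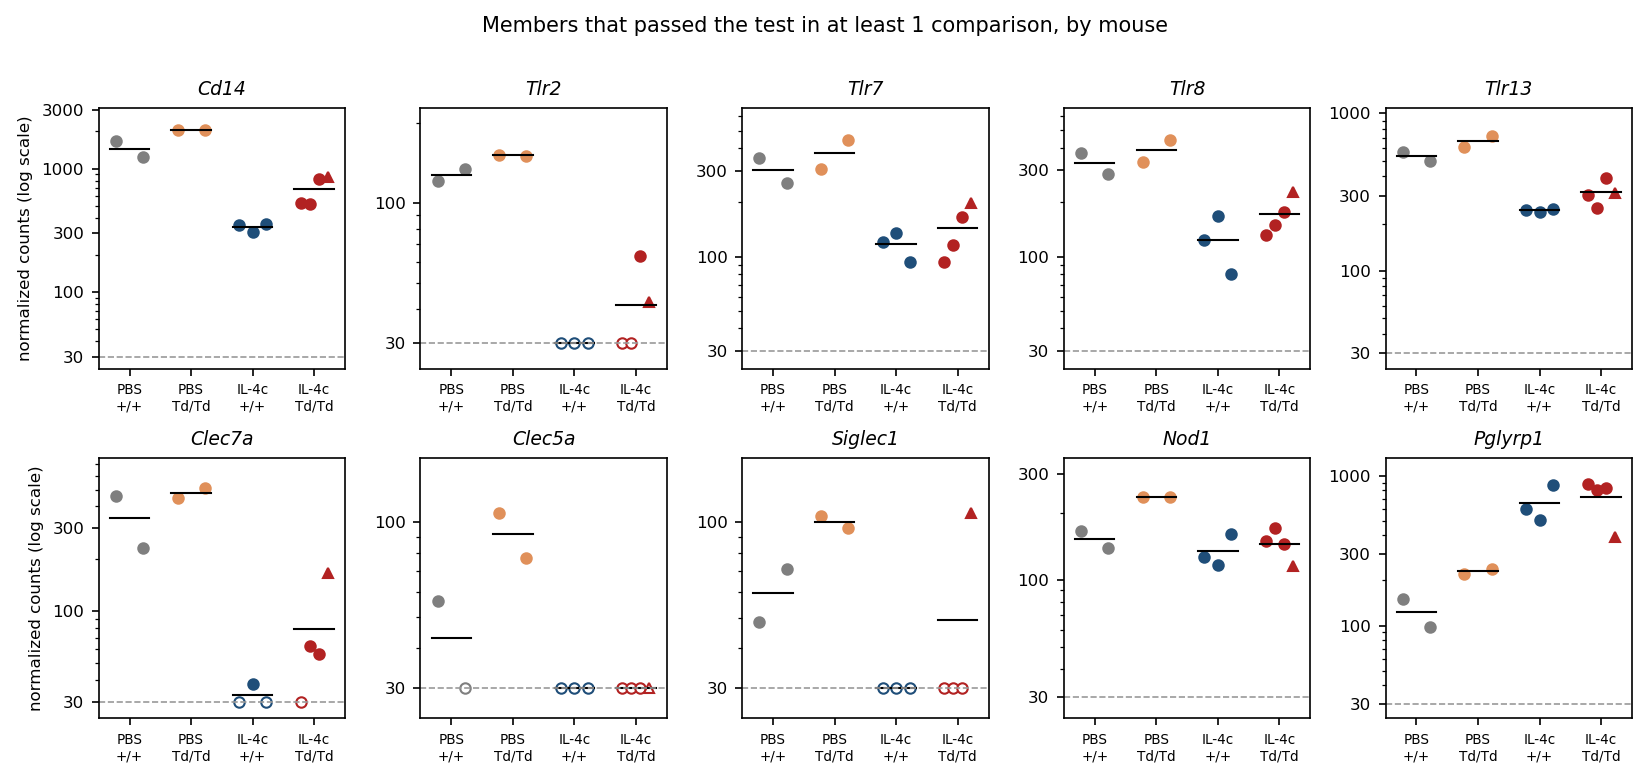
Normalized counts (log scale, y axis) in each mouse for the 10 members that passed in at least 1 comparison, by group, with the group mean as a line. Open symbols are values at the floor of 30 (dashed), the triangle is mouse 12, and all IL-4c mice lay below all PBS mice for Cd14, Tlr2, Tlr7, Tlr8, Tlr13 and Clec7a.

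Myd88, which encodes the adaptor shared by most of these receptors, passed in no comparison. It had group means of 174 ± 22.3 (SD, n = 2) and 186 ± 19.2 (n = 2) after PBS and 159 ± 25.1 (n = 3) and 170 ± 33.9 (n = 4) after IL-4c. All groups overlapped. The log2 fold change after IL-4c was -0.13 (95% interval -0.59 to 0.32) in Rα+/+ and -0.15 (-0.58 to 0.28) in RαTd/Td mice, so that a change by the amount seen for Tlr13 lies outside both intervals.

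Among the C-type lectins, Clec7a gave the lowest fold change of all members. It encodes dectin-1, the receptor for fungal β-glucan. Its level was 457 and 229 in the PBS Rα+/+ mice, 447 and 509 in the PBS RαTd/Td mice, 37.6 in mouse 6 with mice 5 and 7 at the floor, and 63.0, 56.1 and 165 in mice 10, 11 and 12 with mouse 9 at the floor. All IL-4c mice lay below the PBS mice. Group means were 343 ± 161 (SD, n = 2), 478 ± 44.1 (n = 2), 32.5 ± 4.39 (n = 3) and 78.6 ± 59.5 (n = 4). Clec7a was at least 9.09-fold lower in Rα+/+ mice (log2 fold change -3.28, SE 0.57, adjusted p = 0.00124) and at least 7.34-fold lower in RαTd/Td mice (-2.86, SE 0.54, adjusted p = 0.00181). The neutrophil sum fell in the same mice, led by Csf3r, a receptor of granulocytes and monocytes, which was 251 to 555 after PBS and at most 115 after IL-4c. With a single floor of 56.3 the Rα+/+ change was -2.50. Without mouse 12, which had the highest Clec7a value after IL-4c, the RαTd/Td change in Clec7a was -3.30. The part of other cell types in the Clec7a level was not tested.

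Clec5a, which encodes the DAP12-coupled receptor MDL-1, was at 56.3 in mouse 1 and at the floor in mouse 2, at 107 and 77.0 in mice 3 and 4, and at the floor in all 7 IL-4c mice. In RαTd/Td mice it fell at least 2.80-fold (log2 fold change -1.56, SE 0.21, adjusted p = 0.000315; -0.68 with a single floor of 56.3 for all mice). In Rα+/+ mice, where mouse 2 was already at the floor, the log2 fold change was -0.44 (SE 0.23, adjusted p = 0.137), and -0.89 (adjusted p = 0.00343) without mouse 2. The difference in response between the genotypes was -1.12 (adjusted p = 0.10). It passed only without mouse 1 (-1.56, adjusted p = 0.00244), when mouse 2 alone stood for its group and was assumed to vary like the others.

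Siglec1 encodes sialoadhesin, which binds sialic acid on pathogens and cells. It was at 48.2 and 71.2 in the PBS Rα+/+ mice and at 105 and 95.8 in the PBS RαTd/Td mice. After IL-4c it was at the floor in 6 mice and at 107 in mouse 12, above every PBS mouse. The log2 fold change was -0.94 (SE 0.48, adjusted p = 0.138) in Rα+/+ mice, whose groups did not overlap (at least 1.67-fold lower), and -1.26 (SE 0.46, adjusted p = 0.0435) in RαTd/Td mice, whose groups overlapped through mouse 12. The RαTd/Td call was lost under 17 of 20 settings and was -1.71 (adjusted p = 2.93e-05) without mouse 12. The Rα+/+ difference also passed without mouse 12, because the spread is shared between groups (adjusted p = 0.000916), and when only the groups compared were fitted (adjusted p = 0.0224). Mouse 12 also had Ccr2, a monocyte gene, at 464, where mice 9, 10 and 11 had 61.9, 102 and 139, and the part of this in its Siglec1 level was not tested. The eosinophil lectin gene Siglecf was at the floor in every mouse, as were the eosinophil markers.

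Galectin-3, which binds β-galactosides and is known as an abundant protein of macrophages, was not measured above the floor as RNA in most mice. Lgals3 was at the floor in 10 of 11 mice and at 42.5 in mouse 12. This value lies under the limit of 56.1 and 56.3 in the PBS RαTd/Td mice. The reason for the low values was not tested.

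Nod1, the cytosolic sensor of a peptidoglycan fragment, was at 166 and 139 in the PBS Rα+/+ mice, 235 and 235 in the PBS RαTd/Td mice, 127, 116 and 160 in the IL-4c Rα+/+ mice, and 149, 172, 146 and 116 in the IL-4c RαTd/Td mice. The PBS RαTd/Td mice stood above all others, and the remaining 3 groups overlapped. Nod1 fell 1.63-fold after IL-4c in RαTd/Td mice (log2 fold change -0.70, SE 0.18, adjusted p = 0.00830), and in Rα+/+ mice the change was -0.18 (SE 0.19, adjusted p = 0.459). The difference between these responses was -0.52 (adjusted p = 0.370). With median centring (-0.44, adjusted p = 0.0972) or quantile normalization (-0.39, adjusted p = 0.125) the fall in RαTd/Td mice did not pass.

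Pglyrp1, a secreted protein that binds bacterial peptidoglycan and kills bacteria, was the member that rose. It was at 150 and 98.2 in the PBS Rα+/+ mice, 222 and 239 in the PBS RαTd/Td mice, 605, 507 and 871 in the IL-4c Rα+/+ mice, and 882, 799, 835 and 390 in the IL-4c RαTd/Td mice. Every IL-4c mouse was above every PBS mouse, and mouse 12 was the lowest of those given IL-4c. Group means were 124 ± 36.3 (SD, n = 2), 230 ± 11.4 (n = 2), 661 ± 188 (n = 3) and 727 ± 227 (n = 4). Pglyrp1 rose 5.31-fold in Rα+/+ mice (log2 fold change 2.40, SE 0.36, adjusted p = 0.000578) and 3.01-fold in RαTd/Td mice (1.58, SE 0.35, adjusted p = 0.00389; 1.86 without mouse 12). Both rises passed under each of 22 settings. The difference between the genotypes was -0.82 (95% interval -1.94 to 0.31, adjusted p = 0.467). PGLYRP1 is also stored in neutrophil granules. The neutrophil marker sum in the same mice was 334 to 630 after PBS and at most 151 after IL-4c. After PBS most of it was Csf3r, at 251 to 555, and the defining genes Ly6g, Mpo and Elane were at the floor in all mice. The part of neutrophils in the Pglyrp1 level was not tested.

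**Figure D4:**
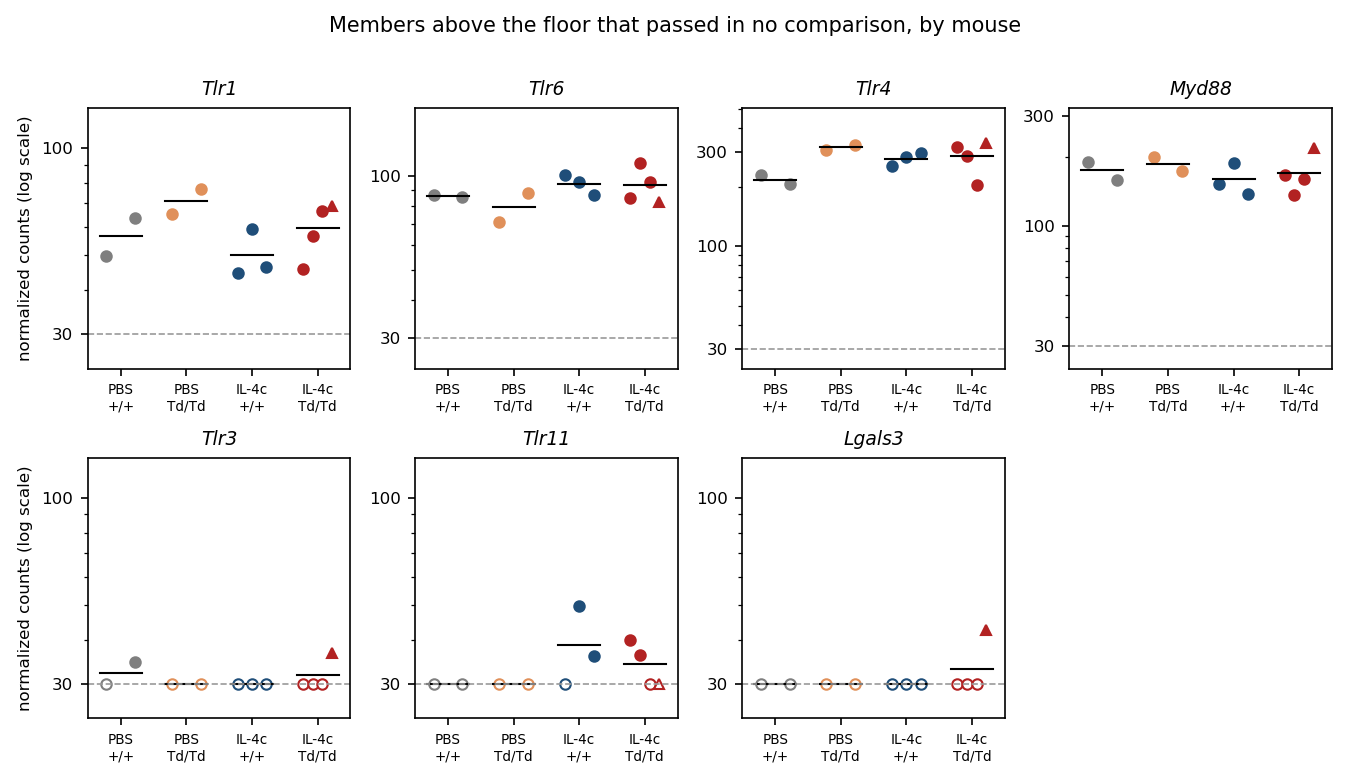
Normalized counts (log scale, y axis) in each mouse for the 7 members that were above the floor and passed in no comparison, by group, with the group mean as a line, open symbols at the floor of 30 (dashed) and mouse 12 as a triangle. Myd88, Tlr1, Tlr4 and Tlr6 were above the floor in every mouse, and Lgals3 only in mouse 12, at 42.5.

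Few of these genes passed the test between RαTd/Td and Rα+/+ mice. After PBS, Clec5a alone passed, 1 of 17 members, where 9.66% of all genes tested did. It was higher in RαTd/Td mice (107 and 77.0) than in Rα+/+ mice (56.3 and floor), by at least 2.18-fold (log2 difference 1.12, SE 0.25, adjusted p = 0.0287; 0.68 with a single floor of 56.3). The call was lost under 10 of the 20 settings run, among them without mouse 2 (0.68, adjusted p = 0.0899). Of the other members, 8 were also higher in both RαTd/Td mice than in both Rα+/+ mice without passing (Cd14, Nod1, Pglyrp1, Siglec1, Tlr1, Tlr13, Tlr2 and Tlr4), and none was lower in both (13.5% of all genes were). With Clec5a these were 9 of 17 members, beside 35.5% of all genes tested that were higher in both mice. Among the members whose groups did not overlap, the log2 differences of Pglyrp1 (0.92, adjusted p = 0.207), Siglec1 (0.76, adjusted p = 0.432), Nod1 (0.63, adjusted p = 0.0929), Tlr4 (0.54, adjusted p = 0.158) and Cd14 (0.52, adjusted p = 0.295) were the largest after that of Clec5a. Centring each mouse on its median gene moved the median over all genes from 0.10 to -0.05. Over the 13 members above the floor in all 4 PBS mice, 8 were higher in both RαTd/Td mice as deposited and 6 after centring (Cd14, Nod1, Pglyrp1, Siglec1, Tlr13 and Tlr4), beside 44.9% and 34.3% of all such genes.

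After IL-4c, Cd14 alone passed (1 of 17, against 2.7% of all genes tested). The 4 RαTd/Td mice, at 526, 519, 830 and 847, lay above the 3 Rα+/+ mice, at 346, 307 and 358, and the level was 1.97-fold higher (log2 difference 0.97, SE 0.20, adjusted p = 0.0421). The call was lost under 13 of 22 settings, over which the difference stayed between 0.73 and 1.09. It was 0.86 (adjusted p = 0.0918) without mouse 12. Tlr13 was the other member whose groups did not overlap (0.36, 95% interval 0.04 to 0.67, adjusted p = 0.188), so that 2 of 17 members were higher in every RαTd/Td mouse, beside 16.4% of all genes tested, and none was lower in every mouse (2.47% of all genes). Clec7a had a difference of 0.98 with overlapping groups (95% interval -0.09 to 2.05, adjusted p = 0.241), and Tlr8 one of 0.50 (-0.11 to 1.10, adjusted p = 0.300). The interval of Tlr4 around its difference of 0.02 ran from -0.34 to 0.38.

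**Figure D5:**
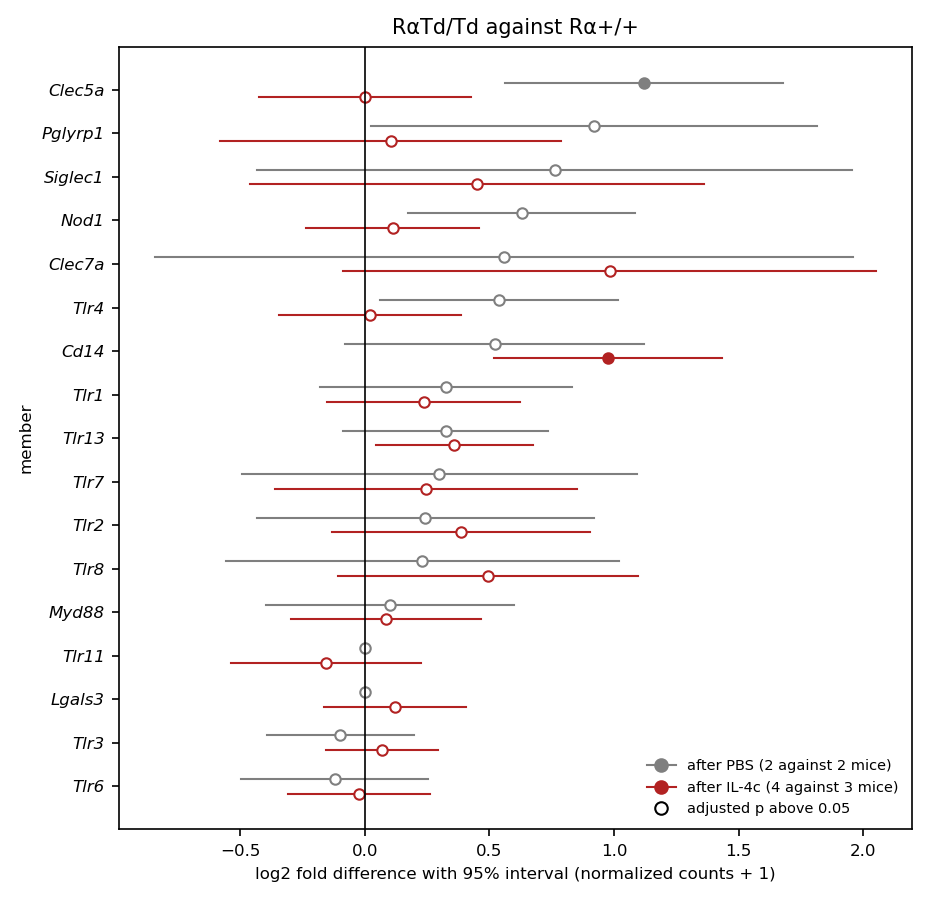
Log2 difference between RαTd/Td and Rα+/+ mice (x axis, on normalized counts + 1) with 95% intervals for the 17 members above the floor, after PBS (grey, 2 against 2 mice) and after IL-4c (red, 4 against 3 mice). Lgals3 and Tlr11 were at the floor in all PBS mice, so their PBS points have no interval and are not measured differences. The filled points, Clec5a after PBS at 1.12 and Cd14 after IL-4c at 0.97, passed the adjusted threshold.

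The test of whether the response to IL-4c differed between genotypes called 0 of 17 members with limma, where 2.02% of all genes tested passed. At an unadjusted p of 0.05 or less 1 member passed (Clec5a), beside 15.5% of all genes. The intervals were wide: for Cd14 the difference in response was 0.45 (95% interval -0.30 to 1.21), for Tlr13 0.03 (-0.48 to 0.55), for Tlr2 0.14 (-0.71 to 0.99), for Tlr7 -0.05 (-1.05 to 0.94) and for Clec7a 0.42 (-1.34 to 2.18). The data therefore do not show that Clec5a, Nod1 and Siglec1, which passed in RαTd/Td mice only, responded differently in the genotypes.

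Genes that act with or after these receptors were counted from a list of 55 signalling and partner genes, of which 29 are on the panel and 27 were tested (Il1b and Tnf were at the floor). After IL-4c, 1 rose and 12 fell in Rα+/+ mice, 3.7% and 44.4% of these 27 beside 13.9% and 32.4% of all genes tested. In RαTd/Td mice 2 rose and 14 fell, 7.41% and 51.9% of these 27 beside 15.3% and 36.6% of all genes. Nfkbiz, which encodes an inducible regulator of NF-κB targets, fell from a mean of 564 to 142 in Rα+/+ mice (-1.99 on the log2 scale, adjusted p = 0.000136) and from 557 to 199 in RαTd/Td mice (-1.50, adjusted p = 0.000458). Irf8, a transcription factor of the myeloid lineage, was between 87.8 and 125 in the 4 PBS mice and at the floor in all 7 IL-4c mice. Cd36, a scavenger receptor that works with TLR2, fell from 1612 to 419 (-1.90, adjusted p = 0.00455) and from 2376 to 691 (-1.89, adjusted p = 0.00348).

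Behind the C-type lectins, the kinase gene Syk fell by 0.54 on the log2 scale in Rα+/+ mice (adjusted p = 0.00444) and by 0.43 in RαTd/Td mice (adjusted p = 0.0101). Bcl10, which joins Syk to NF-κB, fell by 1.04 (adjusted p = 0.00157) and by 0.69 (adjusted p = 0.00965). Tyrobp, which encodes the adaptor DAP12 through which the product of Clec5a signals, fell by 0.61 (adjusted p = 0.00551) and by 0.48 (adjusted p = 0.0125). Il6, a cytokine that these pathways induce, rose from the floor in all 4 PBS mice to between 157 and 204 in Rα+/+ mice and between 81.5 and 217 in RαTd/Td mice, the lowest being mouse 12. Mrc1, the mannose receptor, rose in RαTd/Td mice (1.69, adjusted p = 0.0218), where mouse 12 was at 989 and mice 9, 10 and 11 at 273, 444 and 253, and not detectably in Rα+/+ mice (0.24, adjusted p = 0.771). Traf6, Irf3, Pycard and Casp1 passed in neither genotype. Between genotypes, Jun, which encodes a subunit of the transcription factor AP-1, was the 1 of 27 genes that passed after PBS (mean 564 in RαTd/Td and 255 in Rα+/+ mice), beside 9.66% of all genes tested. It was also the 1 gene of the list whose response to IL-4c differed between genotypes (-1.22, adjusted p = 0.0220), beside 2.02% of all genes. After IL-4c 0 of 27 passed with limma, beside 2.7% of all genes, and 5 did at an unadjusted p of 0.05 or less, beside 21.8%.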

How the data were processed

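The authors lysed the sorted macrophages, ran the lysates on Nanostring's Myeloid Innate Immunity panel (v2) and scaled each mouse to 4 housekeeping genes. The deposited gene values are linear signal in normalized counts, in which low values had been replaced by 30. Below 1000, 100% of the values above 30 were whole multiples of the mouse's factor (tolerance 0.1), and the 14 control probes held raw counts. The software version and any background subtraction are not given in the sources used here.

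Genes with a mean above 30 (445 of 754) were tested in 11 mice with limma 3.58.1 (R 4.3.3) on log2(value + 1), with 1 coefficient per group, empirical Bayes moderation and Benjamini-Hochberg adjustment within each of 5 comparisons. The fit was tested on simulated data. Members and gene lists were chosen with earlier results of these data known. An item of the marker lists is not reported here. Every member above the floor is named, with each mouse's value where it passed in any comparison. Folds are ratios of geometric means; in bounds, floored values were set to that mouse's lowest measurable value. Alternatives were no filter, a mean above 100, values above 30 in every mouse, median centring, quantile normalization, 10 added, a single floor of 56.3, only the groups compared, trended robust moderation, the methods' t-test with and without adjustment, and each mouse left out. Promoters are from RefSeq (GRCm38.p6), and all 24 symbols matched its gene table.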

Additional observations from a re-analysis of the deposited data

Results flagged for a closer look

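In the IL-4c-treated RαTd/Td group, the value of mouse 12 stood apart from those of the other 3 mice for 4 of the 16 members that varied there. The limit was that the gap from mouse 12 to its nearest neighbour took up a larger share of the group's whole range than Dixon's 95% critical value for 4 samples. Siglec1 was at 106.72 normalized counts and at the floor of 30 in mice 9, 10 and 11. Pglyrp1 was at 390.16, below the 881.66, 798.83 and 835.35 of the others, with a gap to the nearest of 0.831 of the group's range. Lgals3, at 42.46, and Tlr3, at 36.72, were likewise above the floor in mouse 12 and at it in the other 3 mice. For Siglec1, Lgals3 and Tlr3 the gap equals the range because the other mice are tied at the floor. For untied values chance puts about 1 in 20 such groups past this limit, a rate that does not hold for ties. Mouse 12 was the highest of its group for 10 of the 17 members tested and the lowest for 3 (Nod1, Pglyrp1 and Tlr6). It also had the highest small peritoneal macrophage or monocyte marker sum, 621, beside 209, 287 and 291 in the others. Of these markers only Ccr2, at 464, stood above the other 3 mice, and Irf4, at 157, lay within their 147 to 185. Its large peritoneal macrophage marker sum, 26415, was the lowest of its group, beside 32612, 35650 and 36295. Mouse 12 was also the only IL-4c mouse with the B cell gene Ms4a1 above the floor, at 63.1. The part of these cell types in the values of mouse 12 was not tested.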

How the results depend on the processing

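No paired analysis was possible because each mouse number belongs to 1 mouse. Across the 19 single-gene calls, 359 of 406 values under alternatives kept direction and call, 47 kept direction and did not pass, and 0 reversed. The calls that passed under every alternative were 11. The members called after IL-4c numbered 5 to 8 in Rα+/+ mice (7 with all mice) and 8 to 10 in RαTd/Td mice (10 with all mice) when each mouse was left out in turn, and 6 in RαTd/Td mice with values above 30 required in every mouse, where 10 members are tested. Between genotypes after PBS, the 1 call became 0 without a filter, with quantile normalization, with only the groups compared and with the methods' t-test after adjustment. It became 2 with that test unadjusted (Nod1 and Tlr4, without Clec5a). The number of calls was also 0 with a mean above 100 and with values above 30 in every mouse, where Clec5a was filtered out and not tested. It ranged from 0 (without mouse 2, 3, 4, 5 or 6) to 3 (without mouse 12, adding Nod1 and Siglec1), and was 2 without mouse 11 (adding Tlr4). After IL-4c, the 1 call became 0 without a filter, with the single floor, with only the groups compared and with the adjusted t-test, and ranged from 0 to 1 over the mice left out (0 without mouse 1, 2, 3, 4, 5, 6, 7, 11 or 12). The difference in response ranged from 0 to 1 (Clec5a, without mouse 1). The adjusted t-test also did not pass Tlr8 in Rα+/+ (0.0863) and Tlr7 in RαTd/Td mice (0.0546). Median centring moved the median of all genes from -0.18 to 0.12 in Rα+/+ and from -0.23 to 0.03 in RαTd/Td mice, and quantile normalization divided the calls over all genes into 104 higher and 107 lower, and into 89 and 109. By the unadjusted t-test Tlr4 and Siglec1 also passed in Rα+/+ mice. Lgals3 (0.38, adjusted p = 0.0267) and Tlr3 (0.33, adjusted p = 0.0493) passed in RαTd/Td mice with median centring, which lifts values at the floor with the mouse. Each PBS-treated group held 2 mice, so where 1 was left out the other was assumed to vary like the rest. The causes of the other changes were not tested.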
